A study of Mus musculus with 20 samples.

Results

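Cyp39a1, Cartpt and Slc17a6 are 3 genes with more transcript in sensory than in motor cortex of the mice studied here, among 18193 genes measured. They are represented on the array by 4 of its 45101 probe sets, which are all the probe sets whose annotation gives exactly 1 of these symbols: 1418780_at for Cyp39a1, 1422825_at for Cartpt, and 1418610_at and 1428379_at for Slc17a6, called here the dimmer and the brighter Slc17a6 probe set. The genes were chosen for their mean difference between the regions, so the sizes of the sensory minus motor differences below describe the choice, carry no test of their own and support nothing further. The comparison of diseased with healthy mice, also of the gap between the regions, and the relation of the gaps across mice played no part in the choice and were tested.

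From each of 10 female C57Bl6 mice, 1 Affymetrix array was run on a piece enriched in motor cortex and 1 on a piece enriched in sensory cortex. Experimental autoimmune encephalomyelitis (EAE), a model of multiple sclerosis in which immunisation with a myelin peptide leads to paralysis, had been induced in 6 of them at 8 to 12 weeks of age, with 100 µg of the MOG35-55 peptide under the skin of the flanks and 50 µg near the tail. Pertussis toxin, 400 ng, was given on day 0 and again on day 3. The other 4 mice were healthy cage mates of the same age range, and the labels describe no mock injection for them. The EAE mice had average grades from 2.50 to 3.50 and hindlimb weakness, and the labels put their collection at day 21 in one place and at days 18 to 21 in another. The mice came from 2 cohorts with 3 EAE and 2 healthy animals each. Regions were cut by hand from 1 mm slices with the help of an atlas, so every value is an average over all layers and cell types of the piece, and in such bulk tissue fewer cells of a type and less RNA per cell cannot be told apart.

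Cyp39a1 encodes an oxysterol 7-alpha-hydroxylase, an enzyme of the cytochrome P450 family that acts on 24-hydroxycholesterol, the form in which neurons release surplus cholesterol. Cartpt encodes the precursor of the CART neuropeptides, which are packed into dense core vesicles and are known for their role in feeding and reward circuits. Slc17a6 encodes VGLUT2, which loads glutamate into synaptic vesicles. VGLUT2 is the main vesicular glutamate transporter of the thalamus and brainstem, whereas most neurons of the adult cortex rely on its relative VGLUT1, encoded by Slc17a7. The primary sensory areas are known for a thick layer 4, the layer that receives most thalamic axons, whereas layer 4 of motor cortex is thin.

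Values are on the log2 scale of the deposited table, on which a difference of 1 is a doubling. The middle value of each array lay between 8.22 and 8.32. The motor array of EAE mouse 1 and the sensory array of EAE mouse 3 stood apart by a narrower spread of values, and motor cortex of healthy mouse 4 and sensory cortex of healthy mouse 1 were processed on a second day. Leaving out any 1 mouse, these 4 included, kept the mean sensory minus motor difference over the remaining mice between 1.99 and 2.12 for Cyp39a1, between 1.55 and 1.65 for Cartpt, between 1.30 and 1.47 for the dimmer and between 1.22 and 1.29 for the brighter Slc17a6 probe set. The labelled tissue was set against markers of layer 5 and layer 4, which grade across the cortex, and the layer 5 markers did not all go one way. Of 12 layer 5 genes 7 were lower and 3 higher in sensory cortex at an adjusted p under 0.05 (limma with the mouse as a block). Crym and Ldb2 were lower by log2 differences of -1.59 ± 0.50 and -0.98 ± 0.17, and Qrfpr was higher by 0.75 ± 0.23, each in 10 of 10 mice (SD, n = 10 mice). The other layer 5 genes that were higher were Scn4b at 0.27 ± 0.19 and Nefh at 0.23 ± 0.18. Rorb, which marks layer 4, was higher by 1.17 ± 0.15 in 10 of 10 mice.

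Cyp39a1 showed the widest gap between the regions. In motor cortex of the 4 healthy mice its log2 values were 7.15, 7.43, 7.21 and 7.47, and in sensory cortex of the same mice, in the same order, 9.78, 9.11, 9.73 and 9.36. In the 6 EAE mice the motor values ran from 6.91 over a median of 7.25 to 7.72, and the sensory values from 8.77 over a median of 9.32 to 9.59. Every sensory array thus lay above every motor array, in healthy and EAE mice alike. The difference within a mouse was 2.18 ± 0.47 (SD, n = 4) in healthy and 1.97 ± 0.38 (SD, n = 6) in EAE mice, and 4.15-fold on average over the 10 mice, from 2.81-fold in EAE mouse 3 to 6.22-fold in healthy mouse 1. The motor values of Cyp39a1 stood between the 26.1 and 40.2 percentiles of their arrays, below the array medians. No detection calls were used here, so how much of the motor signal is background is not known and the fold is approximate.

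Cartpt had log2 values of 8.45, 8.60, 8.47 and 8.46 in motor cortex of the healthy mice and 10.58, 10.14, 10.26 and 10.19 in their sensory cortex. The EAE mice spanned 8.02 to 8.72 with a median of 8.31 in motor cortex and 9.24 to 10.29 with a median of 9.89 in sensory cortex. The regions did not overlap for this neuropeptide gene either, and its sensory values were more scattered in EAE mice (SD 0.43) than in healthy mice (SD 0.20); that difference in scatter was not tested. The paired difference was 1.80 ± 0.24 (SD, n = 4) in healthy and 1.48 ± 0.28 (SD, n = 6) in EAE mice, 3.05-fold over all mice, with single mice between 2.30-fold and 4.36-fold.

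Slc17a6 was read by a pair of probe sets with different brightness. The dimmer had log2 values of 8.01, 7.80, 7.22 and 8.64 in healthy motor cortex and 9.24, 9.25, 9.75 and 9.95 in healthy sensory cortex. In EAE mice it ran from 7.43 over 7.73 to 8.11 in motor cortex and from 8.42 over 9.06 to 9.30 in sensory cortex (lowest, median and highest). It is the probe set for which the regions touched: the motor value of healthy mouse 4, 8.64, exceeded the sensory value of EAE mouse 2, 8.42. The brighter probe set had 9.80, 9.95, 9.46 and 9.82 in healthy motor and 10.99, 11.24, 10.92 and 10.94 in healthy sensory cortex. In EAE mice it ran from 9.28 over 9.59 to 9.79 and from 10.69 over 10.86 to 11.00, with no overlap of the regions. The within-mouse difference of the dimmer probe set was 1.63 ± 0.61 (SD, n = 4) in healthy and 1.28 ± 0.30 (SD, n = 6) in EAE mice. That of the brighter one was 1.27 ± 0.15 in healthy and 1.27 ± 0.26 in EAE mice (SD, n = 4 and 6). The folds over all mice were 2.68 and 2.41. The wide spread of the dimmer probe set in healthy mice came with healthy mouse 3, where it was 5.77-fold higher in sensory cortex and the brighter one was 2.76-fold higher.

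**Figure D1:**
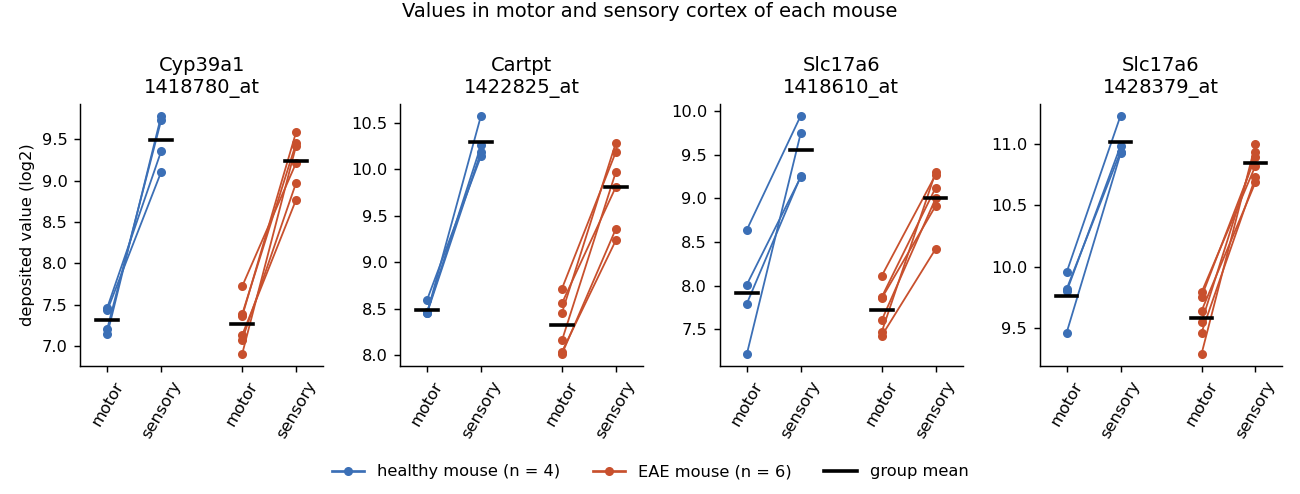
Deposited log2 values (vertical axis, a separate range for each panel) of the 4 probe sets in motor and sensory cortex; each line joins the 2 arrays of 1 mouse, blue for 4 healthy and red for 6 EAE mice, and black bars are group means. Every line climbs from motor to sensory cortex, by 2.05 on average for Cyp39a1, 1.61 for Cartpt, 1.42 for the dimmer Slc17a6 probe set and 1.27 for the brighter.

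All 4 probe sets were higher in sensory cortex in 10 of 10 mice, a pattern shown by 2.5% of the 45037 probe sets examined. For 3 of the 4, every sensory array lay above every motor array, as it did for 0.355% of all probe sets. These shares are given as background only, since the members were selected on this contrast. The 4 probe sets ranked 1, 5, 6 and 9 by mean sensory minus motor difference. With 1 probe set per gene, the brightest, Cyp39a1 ranked 1, Cartpt 3 and Slc17a6 5 among 18193 genes. The genes between and just after them were Nr4a2, a nuclear receptor of deep-layer and claustral neurons, with a difference of 1.83, Car3, a carbonic anhydrase, with 1.29, and Col24a1, a fibrillar collagen, with 1.23. The order of the group means was the same for 4 of 4 probe sets: sensory cortex of healthy mice, sensory cortex of EAE mice, motor cortex of healthy mice, motor cortex of EAE mice. That the sensory groups stood above the motor groups follows from the choice. Lower estimates in EAE in both regions held for 38.5% of all probe sets, and the 4 probe sets were read from the same arrays. Within a region the neighbouring EAE and healthy groups overlapped for every probe set; the step between the regions exceeded the spread of single arrays for all but the dimmer Slc17a6 probe set.

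**Figure D2:**
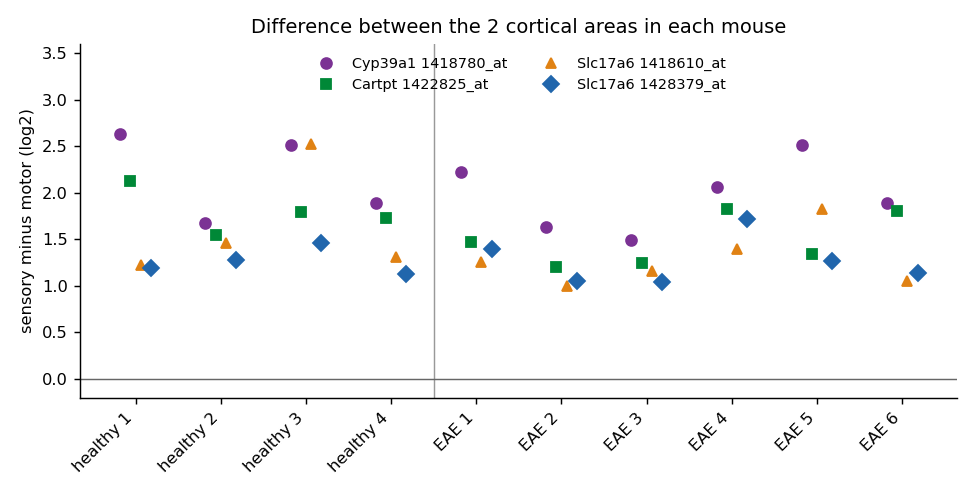
Sensory minus motor log2 difference (vertical axis) in each of the 4 healthy and 6 EAE mice (horizontal axis), 1 symbol per probe set. All 40 differences lie above 0; the smallest is 0.99, of the dimmer Slc17a6 probe set in EAE mouse 2, and the largest 2.64, of Cyp39a1 in healthy mouse 1.

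Whether mice with a wide gap for one gene also had a wide gap for another was examined over the 10 mice, with the brighter probe set of Slc17a6. Pearson's r was 0.54 for Cyp39a1 and Cartpt (permutation p = 0.107), 0.43 for Cyp39a1 and Slc17a6 (permutation p = 0.210) and 0.36 for Cartpt and Slc17a6 (permutation p = 0.307), and the adjusted p over the 3 pairs was 0.307 for each. Spearman's rho was 0.60, 0.61 and 0.48 in the same order, with permutation p of 0.0748, 0.0663 and 0.166 and adjusted values of 0.112, 0.112 and 0.166. None of the 3 relations passed. Single mice moved r: for Cyp39a1 and Cartpt leaving out healthy mouse 1 gave 0.34 and leaving out EAE mouse 5 gave 0.76 (exact permutation p = 0.0178, adjusted 0.0533). For Cyp39a1 and Slc17a6 r ran from 0.31, EAE mouse 3 being left out, to 0.64, EAE mouse 4 being left out, and for Cartpt and Slc17a6 0.23 without EAE mouse 2 and 0.56 without healthy mouse 1. Within the 6 EAE mice r was 0.26, 0.55 and 0.64, with an exact permutation p of 0.596, 0.263 and 0.165. Without the 2 mice farthest from the median of the first gene it was 0.19, 0.51 and 0.46. The main r pools EAE and healthy mice. With the gaps centred within each condition, r over the 10 mice was 0.49, 0.45 and 0.44 (permutation p = 0.147, 0.189 and 0.204). Each cohort holds 5 mice, too few for a value of its own. The points share arrays, since the 3 genes were read from the same pair of arrays in each mouse.

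The genes with the most similar course over the 20 arrays were found from the root mean square difference between profiles, after each gene was centred on its own mean. This measure is 0 for identical courses. Cyp39a1 was nearest to Cartpt, at 0.33, then to Slc17a6 at 0.48, Nr4a2 at 0.50, Rorb at 0.50 and Kcnab3, a potassium channel subunit, at 0.52. For scale, Cyp39a1 itself departed from its own mean by 1.06. Cartpt was nearest to Cyp39a1 at 0.33, Slc17a6 at 0.34, Rorb at 0.36, Rspo1, a secreted activator of Wnt signalling, at 0.39 and Brinp3 at 0.44, against 0.87 about its own mean. Slc17a6 was nearest to Rorb, a nuclear receptor that marks layer 4, at 0.16, then Brinp3 at 0.21, Tafa2 at 0.23, Rspo1 at 0.24 and Ddit4l at 0.25, against 0.66 about its own mean. The distance between the 2 Slc17a6 probe sets was 0.35, wider than that between the brighter one and Rorb. The arrays differ by region, and that step is part of every distance. The members were chosen for a large step, so their closeness to each other follows in part from the choice and supports nothing further.

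No difference between EAE and healthy mice passed the threshold for any of the 3 genes. In motor cortex the EAE minus healthy difference was -0.05 ± 0.13 for Cyp39a1, -0.17 ± 0.12 for Cartpt, -0.19 ± 0.22 for the dimmer Slc17a6 probe set and -0.18 ± 0.10 for the brighter one (log2, limma estimate ± SE, 6 EAE and 4 healthy mice). The adjusted p values were 0.917, 0.645, 0.778 and 0.523, with limma and Benjamini-Hochberg adjustment over all probe sets. None of the 4 had an unadjusted p under 0.05, against 12.1% of all probe sets, the exact permutation test gave 0 of 4, and 0.722% of all probe sets were called at an adjusted p under 0.05. The 95% intervals ran from -0.34 to 0.24 for Cyp39a1, from -0.44 to 0.10 for Cartpt, from -0.68 to 0.29 for the dimmer Slc17a6 probe set and from -0.40 to 0.04 for the brighter one. The sign of some of these values rested on single mice. That of the dimmer Slc17a6 probe set was -0.44 without healthy mouse 3 and 0.10 without healthy mouse 4, whose motor array was processed on the second day. That of Cyp39a1 turned to 0.04 when healthy mouse 4 was left out and to 0.02 when EAE mouse 5 was, against -0.14 for healthy mouse 1, and it was 0.12 within cohort 1 and -0.22 within cohort 2. Cartpt stayed below 0 with any 1 mouse left out, from -0.24 to -0.08, and so did the brighter Slc17a6 probe set, from -0.26 to -0.12.

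In sensory cortex the differences were larger in size for 3 of the 4 probe sets, the exception being the brighter one of Slc17a6, and again 0 of 4 passed, against 0.577% of all probe sets. The dimmer Slc17a6 probe set stood at -0.54 ± 0.17 (95% interval -0.91 to -0.17), with an adjusted p of 0.160 and an unadjusted limma p of 0.00823; 4 of the 6 EAE values lay below all healthy values. A two-sided exact permutation test of this probe set alone over the 210 splits of the mice gave p = 0.0381, where 0.00476 is the smallest p possible; the exact p of the other 3 probe sets was 0.233 for Cyp39a1, 0.0857 for Cartpt and 0.0810 for the brighter one. Cartpt stood at -0.48 ± 0.21 (95% interval -0.94 to -0.02), with an adjusted p of 0.311 and an unadjusted limma p of 0.0433. Cyp39a1 was at -0.26 ± 0.18 (interval -0.66 to 0.15, adjusted p = 0.542) and the brighter Slc17a6 probe set at -0.17 ± 0.09 (interval -0.36 to 0.01, adjusted p = 0.371). The probe sets of Slc17a6 thus had the same sign and different sizes. An unadjusted p under 0.05 with a lower value in EAE, met by 2 of the 4, was met by 10.5% of all probe sets, and 15.2% met it in either direction.

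EAE mouse 2 had the lowest sensory value of all 10 mice for 4 of 4 probe sets: 8.77 for Cyp39a1, 9.24 for Cartpt, 8.42 and 10.69 for Slc17a6. The 4 values were read from the same array. The share of all probe sets that were lowest on that array was not counted, so this count says nothing particular about the members. The mean of 12 layer 4 marker genes was also lowest on that array, 10.46, where the other sensory arrays had 10.55 to 10.72. This was not particular to layer 4. The mean of 16 oxysterol and bile acid genes, 8.84, was lowest there too. So were those of 15 other neuropeptide genes, 10.43, and of 19 thalamic markers, 8.41. The remaining lists had their lowest mean on other arrays, and that of 10 astrocyte genes, 12.12, was highest on this one. The part of this in the members' values was not tested. Without EAE mouse 2 the sensory differences were -0.16 for Cyp39a1, -0.35 for Cartpt, -0.45 for the dimmer Slc17a6 probe set and -0.13 for the brighter one. Without healthy mouse 1, whose sensory array was processed on the second day, they were -0.13, -0.37, -0.60 and -0.20. Within cohort 1 they were -0.26, -0.61, -0.31 and -0.29, and within cohort 2 -0.26, -0.35, -0.78 and -0.06. All 16 of these values were below 0 and none was called.

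**Figure D3:**
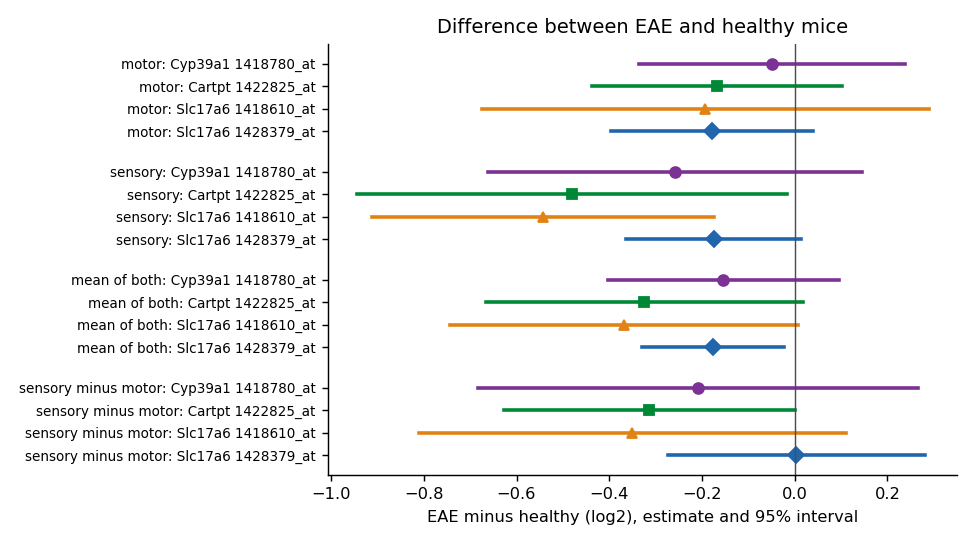
EAE minus healthy difference (horizontal axis, log2) of each probe set in motor cortex, in sensory cortex, for the mean of both and for the sensory minus motor difference; symbols are limma estimates from 6 EAE and 4 healthy mice and bars 95% intervals, without adjustment for the number of probe sets. All estimates but 1 lie below 0, from -0.54 for the dimmer Slc17a6 probe set in sensory cortex to 0.00 for the sensory minus motor difference of the brighter one.

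With both arrays of a mouse averaged, the differences were -0.15 ± 0.11 for Cyp39a1, -0.32 ± 0.16 for Cartpt, -0.37 ± 0.17 for the dimmer Slc17a6 probe set and -0.18 ± 0.07 for the brighter one (log2, estimate ± SE). The limma adjusted p values were 0.468, 0.268, 0.254 and 0.184, and 3.38% of all probe sets were called. The unadjusted limma p was under 0.05 for 1 of the 4, the brighter Slc17a6 probe set at 0.0272, and for 20.4% of all probe sets; the exact permutation test gave 0 of 4. With 1 mouse left out the mean of both regions ran from -0.21 to -0.08 for Cyp39a1, from -0.40 to -0.22 for Cartpt, from -0.49 without healthy mouse 3 to -0.17 without healthy mouse 4 for the dimmer Slc17a6 probe set, and from -0.23 to -0.12 for the brighter one. With all mice the 4 estimates were below 0 in both regions, which held for 38.5% of all probe sets, but the motor values of Cyp39a1 and of the dimmer Slc17a6 probe set changed sign with single mice left out, as given above.

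The gap between the regions was also compared between EAE and healthy mice. The sensory minus motor difference, EAE minus healthy, stood at -0.21 ± 0.22 for Cyp39a1 (95% interval -0.68 to 0.27), -0.31 ± 0.14 for Cartpt (-0.63 to 0.00) and -0.35 ± 0.21 for the dimmer Slc17a6 probe set (-0.81 to 0.11), and at 0.00 for the brighter one, with an SE of 0.13 (-0.27 to 0.28). The limma adjusted p was 1.00 for each, and 0% of all probe sets were called. At an unadjusted p under 0.05 stood 1 of the 4, Cartpt at 0.0498, and 2.2% of all probe sets, 991 in number; the exact permutation test gave 0 of 4. The Cyp39a1 value was 0.01 without healthy mouse 1 and -0.37 without healthy mouse 4. The Cartpt value was -0.15 without healthy mouse 1 and -0.38 without healthy mouse 2, that of the dimmer Slc17a6 probe set -0.08 without healthy mouse 3 and -0.55 without healthy mouse 4, and that of the brighter one lay on either side of 0, from -0.08 without EAE mouse 4 to 0.05 without healthy mouse 3.

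Promoter sequence from RefSeq (GRCm38.p6), 250 bases before to 50 bases after an annotated start, was at hand for 2 of the 3 genes. The Cartpt window and the first of the 2 Slc17a6 windows are printed because these genes share the regional step and differ in the motifs found. Capitals mark matches to the motifs searched on both strands: the cAMP response element TGACGTCA, present in 1.79% of 32851 windows of this length; the nuclear receptor core motif AGGTCA, in 16.3%; its extension AAAGGTCA, which contains the core motif, in 1.51%; and the TATA box core TATAA, in 24.9%.
Cartpt, chr13:99900634-99900933, minus strand: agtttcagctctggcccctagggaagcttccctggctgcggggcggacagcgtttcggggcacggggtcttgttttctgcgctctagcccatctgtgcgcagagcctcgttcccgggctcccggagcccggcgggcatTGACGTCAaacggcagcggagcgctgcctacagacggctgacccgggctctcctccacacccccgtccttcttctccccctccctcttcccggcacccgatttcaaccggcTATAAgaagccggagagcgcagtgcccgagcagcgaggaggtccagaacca
Slc17a6, chr7:51621580-51621879, plus strand: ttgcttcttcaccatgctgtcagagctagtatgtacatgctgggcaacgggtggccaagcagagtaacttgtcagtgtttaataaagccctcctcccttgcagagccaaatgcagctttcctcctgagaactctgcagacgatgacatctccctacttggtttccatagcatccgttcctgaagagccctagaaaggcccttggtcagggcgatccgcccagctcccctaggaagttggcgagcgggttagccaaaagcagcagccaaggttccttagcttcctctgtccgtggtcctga
The Cartpt window held TGACGTCA from base 139 and TATAA from base 250 of the window, counted from its 5′ end. Relative to the annotated start these first bases lie at -112 and -1. The TATAA letters thus run across the annotated start itself, and whether they serve as a TATA box was not tested. The window had a GC content of 66%, against a median of 52.7% over all windows. The Slc17a6 window held none of these letters and had a GC content of 53.7%. The second Slc17a6 window, chr7:51624387-51624686, plus strand, also held none and had 43% GC. These are matches of letters only, and the arrays do not measure binding.

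None of the 16 oxysterol and bile acid genes and none of the 6 further SLC17 genes measured passed the test between the regions. Some genes of peptide processing, vesicle filling and neuropeptides did. The members were chosen on this contrast and are given no test of it. The differences furthest from 0 were 0.14 for Cyp7b1 among the oxysterol enzymes and -0.13 for Slc17a2 in the SLC17 family. Of 16 oxysterol and bile acid enzymes besides Cyp39a1, 0 were higher and 0 lower in sensory cortex at an adjusted p under 0.05 (limma with the mouse as a block), with a median difference of 0.00. Over all probe sets 1815 (4.03%) were higher and 1967 lower, with a median of -0.01. At an unadjusted p under 0.05 stood 3 of the 16. The share of all probe sets at that level was not counted for the regional comparison. This count and the unadjusted ones of the SLC17 and hypothalamic lists therefore have no background beside them. Cyp46a1, the enzyme that makes 24-hydroxycholesterol in neurons, differed by 0.06 ± 0.06, and Cyp7b1, the other oxysterol 7-alpha-hydroxylase, by 0.14 ± 0.15 (SD, n = 10, adjusted p = 0.269 and 0.0853). Of the SLC17 family, 6 further members were measured and 0 passed in either direction, with 1 at an unadjusted p under 0.05. Slc17a7, the gene of VGLUT1, differed by -0.08 ± 0.18 (adjusted p = 0.455), with sensory and motor means of 12.79 and 12.87. Slc17a4 and Slc17a8 were not analysed here.

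Of 11 other vesicular transporters and proton pump subunits, 0 were higher and 2 lower in sensory cortex, Sv2b and Atp6v1a, both at -0.13. Among 15 genes of neuropeptide processing and dense core vesicles, 2 were higher, Cadps2, a priming factor for dense core vesicles, at 0.40 ± 0.07 and Scg5, the chaperone of a prohormone convertase, at 0.10 ± 0.05 (SD, n = 10). Vgf, a granin-like precursor, was lower at -0.19 ± 0.10, and the other 12 did not pass. The other cortical neuropeptide precursors went mostly the other way from Cartpt: of 15 measured, 9 were lower in sensory cortex and 1 was higher. Tac1, the precursor of substance P, stood at -0.88 ± 0.26, Adcyap1, the precursor of PACAP, at -0.79 ± 0.15 and Bdnf, a neurotrophin, at -0.40 ± 0.19, all lower in 10 of 10 mice. Nmb, the precursor of neuromedin B, was higher by 0.67 ± 0.35 in 10 of 10 mice. Without EAE mice 1 and 3 the counts were still 9 and 1, and without the second-day mice 6 and 1.

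**Figure D4:**
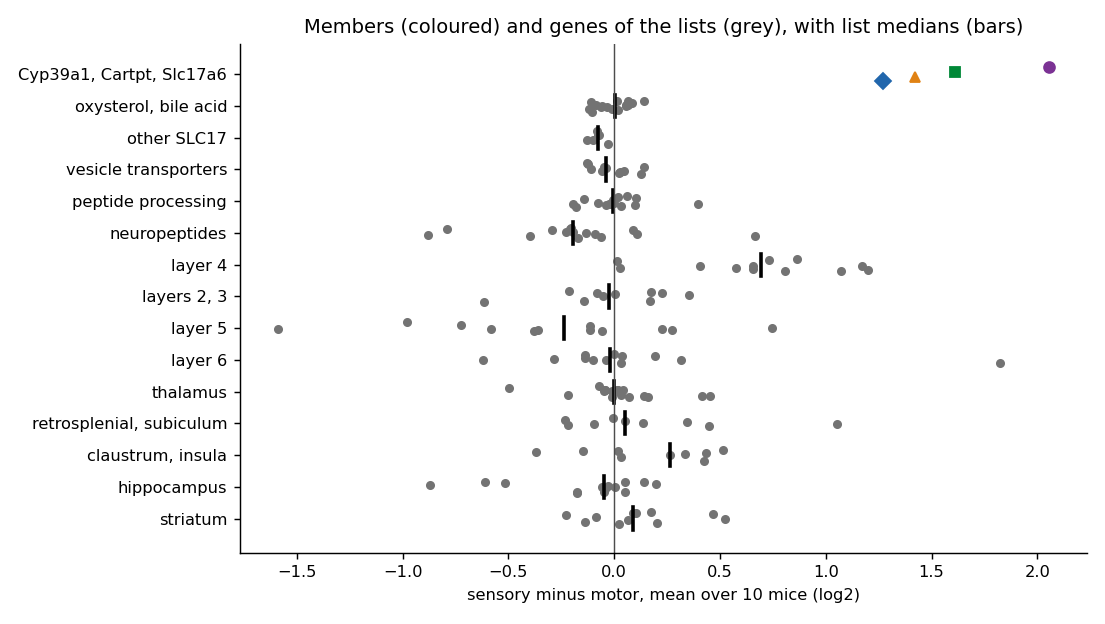
Mean sensory minus motor log2 difference over 10 mice (horizontal axis) of the 4 member probe sets (coloured, top row) and of the genes of 14 lists, 1 brightest probe set per gene (grey points; black bars are list medians). The members lie between 1.27 and 2.05, while the oxysterol list has a median of 0.00, the neuropeptides -0.19 and the layer 4 genes 0.69.

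Layer 4 markers were mostly higher in sensory cortex, the direction for which the members were chosen. Whether their gap followed the members' gap from mouse to mouse was not tested. Of 12 genes, 10 were higher in sensory cortex, 0 were lower, and the median difference was 0.69. Rspo1 stood at 1.20 ± 0.37, Rorb at 1.17 ± 0.15 and Tmem215 at 1.07 ± 0.33 (SD, n = 10 mice), each higher in 10 of 10 mice; Whrn at 0.02 and Lmo3 at 0.03 did not pass. The mean of the 12 genes lay between 10.46 and 10.72 on the sensory arrays and between 9.74 and 10.05 on the motor arrays, with no overlap. The count was 10 of 12 as well without EAE mice 1 and 3 and without the second-day mice. The part of layer 4 content in the members' regional difference was not tested.

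Markers of thalamic neurons, in which Slc17a6 is known to be abundant, were near even: 2 of 19 were higher and 2 lower in sensory cortex, with a median of 0.00. Tcf7l2, a transcription factor that defines thalamic neurons, differed by 0.02 ± 0.15 and Prkcd, a kinase of relay neurons, by 0.04 ± 0.16 (SD, n = 10). Those that passed were Tnnt1 at 0.45 and Rora at 0.42, higher in sensory cortex, and Ramp3 at -0.50 and Calb2 at -0.22. Of 9 claustrum and insula markers 4 were higher and 1 lower, with Gnb4 at 0.52, Rgs12 at 0.43 and Lxn at 0.42. Of 12 layer 6 and subplate markers 1 was higher, Nr4a2 at 1.83 ± 0.66, and 1 lower, Sulf1 at -0.62; Ccn2, at 0.31, did not pass. Of 10 markers of piriform cortex and amygdala 1 was higher and 7 lower, with Rspo2 at -1.51, Lypd1 at -0.79 and Meis2 at -0.63. The 12 hypothalamic markers, a tissue where Cartpt is known to be abundant, gave 0 in either direction, with 1 at an unadjusted p under 0.05; those furthest from 0 were Pmch at -0.14, Gal at -0.09 and Trh at -0.08.

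The remaining lists are given with the 3 genes furthest from 0 in each. Of 10 genes of layers 2 and 3, 4 were higher in sensory cortex and 2 lower, with Ccdc80 at -0.61, Cux2 at 0.35 and Pou3f2 at 0.23. Retrosplenial cortex and subiculum gave 3 higher and 1 lower of 9, with Cbln4 at 1.05, Zmat4 at 0.45 and Tox3 at 0.34. Hippocampus gave 0 and 4 of 14, with Spink8 at -0.87, Grp at -0.61 and Neurod6 at -0.52. Striatum gave 3 and 2 of 11, with Gpr6 at 0.52, Ppp1r1b at 0.47 and Gprin3 at -0.23. Inhibitory neurons gave 1 and 1 of 9, Pvalb at 0.36 and Htr3a at -0.20, while Adarb2 at -0.15 did not pass. Astrocytes gave 3 higher and 0 lower of 10, Gfap at 0.60, Aldh1l1 at 0.18 and Fgfr3 at 0.16. Choroid plexus and meninges gave 3 and 0 of 12, Igfbp2 at 0.54, Dcn at 0.38 and Igf2 at 0.37. Oligodendrocytes, microglia and endothelium gave 0 and 0 of 10, 7 and 7; their genes furthest from 0 were Mobp at 0.16, Ermn at 0.13 and Mog at 0.13, then Gpr34 at -0.23, Cx3cr1 at 0.13 and Aif1 at -0.11, and last Pecam1 at 0.11, Flt1 at 0.08 and Cldn5 at 0.07. How far these tissues took part in the members' difference was not tested.

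**Figure D5:**
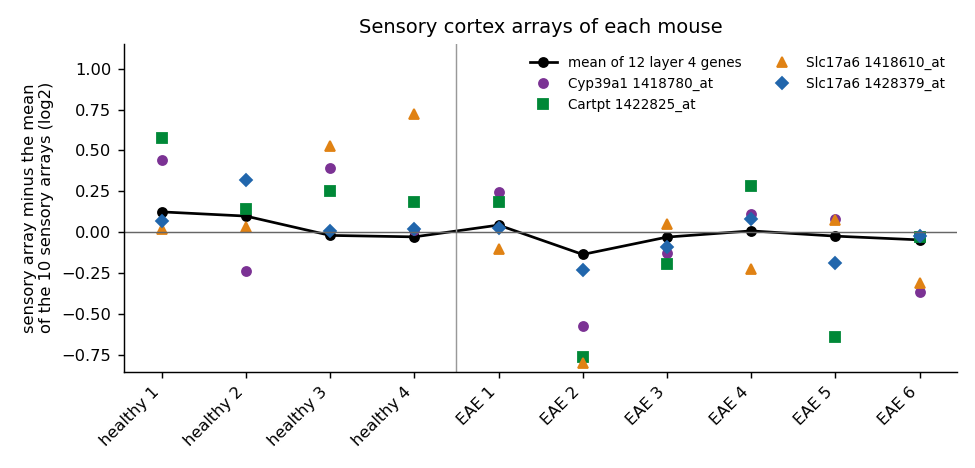
Sensory cortex value of each mouse minus the mean of the 10 sensory arrays (vertical axis, log2), for the 4 member probe sets (coloured symbols) and the mean of 12 layer 4 genes (black line), in 4 healthy and 6 EAE mice. EAE mouse 2 is lowest for all 5 measures. The means of the oxysterol, neuropeptide and thalamic lists, which are not drawn, were also lowest in that mouse.

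The lists were also set against EAE. Beside the members' sensory values stood mostly lower oligodendrocyte, microglial and endothelial markers in EAE. Their median EAE minus healthy differences in sensory cortex were -0.37, -0.32 and -0.29. That of the astrocyte markers was 0.05. The mean of 7 microglial genes on the sensory arrays was 9.41 to 10.01 in EAE and 10.09 to 10.25 in healthy mice, and that of 7 endothelial genes 9.49 to 9.75 and 9.88 to 10.03. The mean of 10 astrocyte genes was 11.85 to 12.12 in EAE and 11.76 to 11.88 in healthy mice, and that of 10 oligodendrocyte genes 11.08 to 11.65 and 11.55 to 11.64, so that the groups overlapped for both. Single genes that passed in sensory cortex were P2ry12 of the microglia, lower at -0.98 ± 0.16, Slco1c1 of the endothelium, lower at -0.51 ± 0.07, and Gjb6 of the astrocytes, higher at 0.66 ± 0.09 (limma adjusted p = 0.0358, 0.0200 and 0.0200). The counts rest on single mice: with 1 mouse left out they ran from 0 to 2 microglial and from 0 to 3 endothelial genes lower, from 0 to 2 astrocyte genes higher and from 0 to 2 oligodendrocyte genes lower, the last with 0 called over all mice. The microglial and endothelial calls were lost without EAE mouse 2, 4, 5 or 6 or any 1 healthy mouse, and the astrocyte call without EAE mouse 2, 4 or 5 or any 1 healthy mouse. At an unadjusted limma p under 0.05 in sensory cortex stood 5 of 7 microglial, 5 of 7 endothelial, 5 of 10 astrocyte and 6 of 10 oligodendrocyte genes. Of all probe sets 15.2% did. Their part in the members' values was not tested. None of the 12 layer 4 genes passed in motor cortex, in sensory cortex or for their mean, and their median differences were -0.07, -0.05 and -0.08. At an unadjusted limma p under 0.05 stood 3, 3 and 4 of the 12, against 12.1%, 15.2% and 20.4% of all probe sets.

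Among the pathway lists, Ch25h, which makes 25-hydroxycholesterol and is known to be induced by interferon, rose by 0.72 ± 0.16 in the mean of both regions (limma adjusted p = 0.0385), the only 1 of the 16 oxysterol genes to pass. Ch25h did not pass in motor or sensory cortex alone, at 0.61 ± 0.15 and 0.84 ± 0.19 (adjusted p = 0.107 and 0.0742). Cyp46a1 and Cyp7b1 stood at -0.05 and -0.09. Among the transporters Slc18a2, the vesicular monoamine transporter, was lower in the mean of both regions at -0.47 ± 0.11 (adjusted p = 0.0481), and of the SLC17 family 0 of 6 passed. Chga, a granin of dense core vesicles, was lower at -0.31 ± 0.05 (adjusted p = 0.0130). Of the neuropeptide precursors, Pdyn rose by 0.41 ± 0.05 and Vip by 0.36 ± 0.05, and Sst was lower at -0.27 ± 0.06 (limma adjusted p = 0.00611, 0.00858 and 0.0366). The calls of Pdyn and Vip for the mean of both regions held with each of the 10 mice left out in turn, at adjusted p values of up to 0.0300 and 0.0425. Chga was lost without healthy mouse 1 or 3 (adjusted p up to 0.0516) and Ch25h without EAE mouse 3 or 5 or healthy mouse 2, 3 or 4 (up to 0.140). Slc18a2 and Sst were lost in 9 of the 10 cases, all but the removal of EAE mouse 1 (up to 0.171 and 0.139). Without the mice that had an array of the second processing day none of the 6 genes passed (limma adjusted p 0.146 for Pdyn, 0.158 for Vip, 0.203 for Chga, 0.205 for Ch25h, 0.287 for Slc18a2 and 0.375 for Sst), while the estimates kept their sign, from 0.74 for Ch25h to -0.47 for Slc18a2. Vip and Pdyn also passed in each region alone with all mice. In motor cortex Vip was lost with any 1 mouse left out (adjusted p 0.0518 to 0.192) and Pdyn with any but EAE mouse 1 (up to 0.158). In sensory cortex Pdyn was lost without EAE mouse 5 or any 1 healthy mouse (up to 0.119), and Vip without EAE mouse 4, 5 or 6 or any 1 healthy mouse (up to 0.186). No gene of these lists passed for the difference between the regions.

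The pathway genes with the smallest p after these are given by value, and none of them passed. In the mean of both regions Cyp11a1, the enzyme that opens steroid hormone synthesis, stood at -0.32 ± 0.09 and Cyp51, an enzyme of cholesterol synthesis, at -0.25 ± 0.07 (limma adjusted p = 0.0714 and 0.0838). In motor cortex they stood at -0.29 and -0.25, and in sensory cortex at -0.35 and -0.26. In the SLC17 family Slc17a9, the transporter of ATP into vesicles, was at 0.12, Slc17a2 at 0.16 and Slc17a3 at 0.10 in the mean, Slc17a2 at 0.25, Slc17a5 at 0.09 and Slc17a9 at 0.08 in motor cortex, and Slc17a9 at 0.16, Slc17a7 at -0.14 and Slc17a1 at 0.11 in sensory cortex. Of the other transporters Slc18a2 was at -0.37 in motor and -0.57 in sensory cortex. Sv2b was at 0.12 and Atp6v0a1 at -0.10 in the mean, Slc30a3 and Sv2b both at 0.10 in motor cortex, and Sv2b at 0.15 and Atp6v0a1 at -0.16 in sensory cortex. Of the peptide processing genes Cpd, a carboxypeptidase, was at -0.16 and Scg5 at 0.10 in the mean, Chga at -0.31, Pcsk1, a prohormone convertase, at -0.30 and Cpd at -0.15 in motor cortex, and Chga at -0.30, Cpd at -0.18 and Cadps2 at -0.18 in sensory cortex. Sst was at -0.26 in motor and -0.28 in sensory cortex. For the gap between the regions the smallest p were those of Ch25h at 0.23, Cyp8b1 and Akr1d1 both at 0.10, Slc17a7 at -0.15, Slc17a2 at -0.17, Slc17a9 at 0.08, Atp6v0a1 at -0.12, Slc18a2 at -0.19, Slc18a1 at -0.10, Pam at 0.24, Pcsk1n at -0.10, Cadps at 0.07, Tac2 at 0.12, Vip at 0.10 and Pdyn at 0.08.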

How the data were processed

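Total RNA from motor and sensory cortex of 10 mice was hybridised to 20 arrays, from 1 µg each per the labels' protocols. The authors deposited values on a log2 scale; per the submitters' processing notes, Partek and the RMA method were used, and no version is stated there. The RMA method subtracts background, aligns the arrays and combines the probes of a set, which compresses differences at low signal. The number of arrays limits the precision.

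After 64 control probe sets were left out, 45037 were tested: 34945 had 1 gene symbol in the platform annotation, 932 several and 9160 none listed. Entrez identifiers of 34741 matched the RefSeq table, and 0 symbols changed. EAE and healthy mice were compared with limma 3.58.1 in R 4.3.3 (lmFit, eBayes, two-sided, cohort as covariate), per region, on each mouse's mean and on its sensory minus motor difference, with Benjamini-Hochberg adjustment over all probe sets and a threshold of 0.05. Sensory and motor arrays of a mouse are paired by the labels' animal numbers; the correlation of their deviations from group means was -0.06 to 0.59. For the genes of the lists and all probe sets, sensory and motor cortex were compared with the mouse as a block. Lists use the brightest probe set of each gene and were given no set test. Permutation tests were exact over mice, or used 100000 resamples for correlations over 10 mice. Promoter windows were searched with Python 3.11.15. On simulated data with 200 of 45037 probe sets changed by 1, limma recovered 98.5% in motor and 94% in sensory cortex, 98% for the mean of both and 89% for the difference between regions. The members' EAE estimates were smaller in size, the furthest from 0 being -0.54. Changes of that size were not simulated, so these shares do not say how well they would be recovered.

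The members and lists were chosen with earlier results of these data known. Named by rule were all member probe sets, for each pathway list the 3 smallest p per EAE comparison, for each marker list the 3 largest regional differences, the 5 genes most alike each member, and Slc17a7, Slc17a8, Cyp46a1, Cyp7b1, Ch25h, Tcf7l2, Prkcd, Rorb, Rora and Drd1. Drd1, at -0.33 in motor and -0.36 in sensory cortex (log2, EAE minus healthy), did not pass. Scn4b, Nefh, Calb2, Whrn, Lmo3, P2ry12, Slco1c1, Gjb6, the pathway genes named for the regional contrast and the genes ranked beside the members were named after their values were seen. Alternatives were other normalizations, filters and fits, single cohorts, the processing day and each mouse left out in turn. No Cyp39a1 promoter was used here.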

Additional observations from a re-analysis of the deposited data

Results flagged for a closer look

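In motor cortex of the 4 healthy mice, Cartpt in healthy mouse 2 stood above the other 3, at 8.60 on the log2 scale, with a gap to the next value of 0.906 of the group's whole range. The distance is small, since the 4 values span 8.45 to 8.60, and chance marks about 1 in 20 groups in this way; 24 groups of member values were examined and 1 was marked.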

How the results depend on the processing

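No member probe set was called for EAE under any alternative tried, in motor cortex, in sensory cortex, for the mean of both or for the difference between regions, nor with any 1 mouse left out. The exact permutation test of the dimmer Slc17a6 probe set in sensory cortex, p = 0.0381 and not adjusted, was the exception to a p above 0.05 in those tests of single probe sets. Signs of EAE estimates changed in 4 cases, none of them called. Cyp39a1 in motor cortex, -0.05 with all mice, was 0.12 within cohort 1, 0.087 with the replicate block by mouse number, 0.038 without the second processing day, and -0.14 to 0.038 with 1 mouse left out. The dimmer Slc17a6 probe set in motor cortex, -0.19, was 0.10 without the second day and -0.44 to 0.10 with 1 mouse left out. For the gap between regions the brighter Slc17a6 probe set, 0.00, was -0.0031 with quantile normalization, -0.074 within cohort 1, -0.10 without the second day and -0.081 to 0.051 with 1 mouse left out, and Cyp39a1, -0.21, was -0.37 to 0.014 with 1 mouse left out. How many of all probe sets passed depended on the setting, and the cause was not tested. In motor cortex, where 325 were called, the count was 501 with trend and robust variances, 5 within cohort 1, 16 within cohort 2, 89 without the second processing day, and 34 to 347 with 1 mouse left out. In sensory cortex, where 260 were called, it was 438 with the brightest probe set per gene, 895 with trend and robust variances, 0 and 15 within the cohorts, 7 without the second day, and 6 to 1375 with 1 mouse left out. For the mean of both regions, where 1522 were called, it was 0 and 246 within the cohorts, 5 without the second day, and 310 to 2237 with 1 mouse left out. With mice of the same number as a replicate block the count was 6 in sensory cortex and 332 for the mean. That block joins an EAE mouse to a healthy mouse which shares only its number, so it is no pairing. With 4 healthy mice the members' 95% intervals were wide, down to -0.94 for Cartpt in sensory cortex. Leaving out each mouse, or the second day, for the named genes and glial counts of the lists was chosen after seeing the data.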
